A study of Homo sapiens with 6 samples.

Results

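The contractile actin cytoskeleton genes described here are ACTA2, TAGLN, MYL9, CNN1, CNN2, TPM1, TPM2, VCL, FLNA and SRF, 10 of the 25662 gene symbols measured by RNA sequencing in HCT116 cells. HCT116 is an established human colorectal carcinoma line, grown here in McCoy's 5a medium with fetal bovine serum. Cells were transfected with an siRNA against RRN3 (n = 3) or, as their controls, with a control siRNA (n = 3), and the design text calls the replicates biological. The labels state neither the time after transfection nor the siRNA sequences, and an effect of RRN3 loss and an effect of the siRNA itself cannot be told apart. The genes were taken by symbol, and the group was chosen by its measured values, because ACTA2 had one of the largest rises in this same comparison. Levels and differences of all 10 between the groups are therefore given as a description, without p-values, and a gene called changed is one past the threshold of a fit over the whole table.

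Contraction in smooth muscle and in stress fibres of other cells rests on myosin II pulling on actin filaments. Regulatory light chains switch the myosin on, tropomyosins and calponins line the filament, filamin crosslinks filaments, and vinculin couples them to adhesion sites. Many of these genes are bound by the serum response factor SRF at the CArG box, together with its actin-sensing cofactors of the MRTF family. RRN3, also called TIF-IA, is a factor of RNA polymerase I that is needed to start transcription of the ribosomal RNA genes.

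Since SRF is known for its binding to CArG boxes, the 250 bases before each RefSeq start of these genes (GRCh38) were searched for them. A CArG box was taken as CC, then 6 bases that are A or T, then GG, which reads alike on both strands. The RefSeq table held 11 such windows for 8 of the 10 genes, all except TAGLN and MYL9. A CArG box lay in a window of 3 of the 8 genes, CNN2, FLNA and SRF, and in 407 of all 35116 windows (1.16%). The ACTA2 window at its downstream start held no exact box but 2 boxes with 1 core base that is C or G, a form present in 5.96% of all windows. The letters CATTCC, on either strand, were in the same ACTA2 window and in that of VCL, and in 11.9% of all windows. These matches describe letters and are no evidence of binding. The windows with a full or near box are printed because they hold the candidate sites, with the boxes and, in ACTA2, CATTCC read on the other strand in capitals.
ACTA2, minus strand, chr10:88952774-88953023: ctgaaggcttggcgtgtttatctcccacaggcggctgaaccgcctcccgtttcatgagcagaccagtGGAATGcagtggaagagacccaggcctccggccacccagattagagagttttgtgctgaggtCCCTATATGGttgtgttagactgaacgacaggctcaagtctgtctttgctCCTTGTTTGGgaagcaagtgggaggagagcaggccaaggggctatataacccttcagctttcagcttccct
CNN2, plus strand, chr19:1026358-1026607: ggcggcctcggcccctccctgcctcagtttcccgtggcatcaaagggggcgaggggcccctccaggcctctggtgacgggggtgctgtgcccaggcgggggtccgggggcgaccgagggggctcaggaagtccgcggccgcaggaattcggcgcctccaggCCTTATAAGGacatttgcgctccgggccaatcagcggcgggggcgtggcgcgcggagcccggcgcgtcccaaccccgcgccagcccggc
FLNA, minus strand, chrX:154374635-154374884: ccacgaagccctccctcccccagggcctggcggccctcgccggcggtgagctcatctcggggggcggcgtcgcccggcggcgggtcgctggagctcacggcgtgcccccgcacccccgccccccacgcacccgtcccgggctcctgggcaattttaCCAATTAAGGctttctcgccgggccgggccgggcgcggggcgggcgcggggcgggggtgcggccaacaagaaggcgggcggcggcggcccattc
SRF, plus strand, chr6:43171019-43171268: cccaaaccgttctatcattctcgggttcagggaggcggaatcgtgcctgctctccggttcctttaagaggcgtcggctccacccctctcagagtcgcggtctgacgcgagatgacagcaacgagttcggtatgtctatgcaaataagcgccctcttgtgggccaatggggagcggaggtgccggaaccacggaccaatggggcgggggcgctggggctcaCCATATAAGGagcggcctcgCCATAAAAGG
The near boxes of ACTA2 began 121 and 71 bases before its start, the CNN2 box 89 bases and the FLNA box 94 bases before theirs. SRF, whose own gene is among its known targets, carried 2 boxes, which began 30 and 10 bases before the start.

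The values are TPM, a transcript level scaled by length and by the library total. RRN3 itself was at 2.70, 1.22 and 0.925 TPM in RRN3 siRNA libraries, against 20.9, 14.7 and 14.1 TPM in control siRNA libraries. Its log2 change was -2.79 (SE 0.27, limma adjusted p = 0.000301), with an exact two-sided permutation p of 0.1, the smallest that 3 against 3 allow. The libraries summed to between 991305 and 992042 TPM, and TPM keeps no sequencing depth, so no counting interval can be given. Deviations from the group mean followed GC content across genes in several libraries, with correlations of -0.499, 0.163 and 0.455 in RRN3 siRNA replicates 1, 2 and 3, against -0.455, 0.420 and 0.0660 in control siRNA replicates 1, 2 and 3. GC-poor genes thus lay above the group mean in both libraries numbered 1, and below it in RRN3 siRNA replicate 3 and control siRNA replicate 2. The design text calls the replicates biological, but nothing in the labels says that they came from separate cultures. The p-values therefore measure only the spread between these samples. The epithelial markers EPCAM, KRT8, KRT18, KRT19, CDH1, CLDN3 and CLDN4 were all measured, and summed to 12747 to 13935 TPM in RRN3 siRNA and 5794 to 6873 TPM in control siRNA libraries. Of these 7, KRT8, KRT18 and KRT19 rose, CLDN3 fell, and EPCAM, CDH1 and CLDN4 did not pass. The 3 keratins made up most of the sum, averaging 6409, 3174 and 3162 TPM in RRN3 siRNA and 2798, 1389 and 1573 TPM in control siRNA libraries. The part of these markers in the results was not tested. The 12 fibroblast and smooth muscle markers summed to 13.4 to 14.5 TPM in RRN3 siRNA and 15.9 to 18.5 TPM in control siRNA libraries. Of these, COL1A2, LUM, DCN and POSTN were listed at 0 in all 6. COL1A1, a collagen gene, was at 6.78 to 7.61 TPM in RRN3 siRNA and 8.32 to 10.4 TPM in control siRNA libraries. It did not pass (log2 change -0.33, SE 0.13, limma adjusted p = 0.102). The smooth muscle genes MYH11, ACTG2 and LMOD1 stayed below 1 TPM in every library, whereas DES was at 6.17 to 8.44 TPM. In bulk RNA a change in the share of cells that express a gene and a change in RNA per cell cannot be told apart.

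ACTA2, the smooth muscle alpha actin, was at 30.96, 34.4 and 30.9 TPM in RRN3 siRNA libraries, against 4.76, 4.601 and 3.91 TPM in control siRNA libraries. All 3 RRN3 siRNA libraries lay far above all 3 controls, and the libraries within a group lay close together. The log2 change was 2.61 (SE 0.12), rank 12 from the top among 12157 genes tested. On the TPM scale the mean was 7.25 times that of the controls. ACTA2 (ENSG00000107796) lies on the minus strand at chr10:88935074-88991339 in GRCh38.

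The other actins were far more abundant or nearly absent. ACTB, a cytoplasmic actin, was at 3022, 2851 and 2921 TPM in RRN3 siRNA libraries, against 2124, 2514 and 2169 TPM in control siRNA libraries. It rose by a log2 change of 0.37 (SE 0.09, limma adjusted p = 0.0132). ACTG1, the other cytoplasmic actin, was at 6064, 5693 and 5734 TPM in RRN3 siRNA libraries, against 5068, 6006 and 5239 TPM in control siRNA libraries, and its groups overlapped (log2 change 0.10, SE 0.09, limma adjusted p = 0.431). ACTB missed the threshold under median-of-ratios scaling (adjusted p = 0.0610), and when RRN3 siRNA replicate 2 (0.0528) or control siRNA replicate 3 (0.0566) was left out. The muscle actins ACTG2 and ACTA1 reached no more than 0.0382 and 0.145 TPM in any library, and ACTC1 was listed at 0 in all 6. ACTA2 made up 0.340%, 0.401% and 0.356% of the summed TPM of the 6 actin genes in RRN3 siRNA libraries, against 0.0662%, 0.0540% and 0.0528% in control siRNA libraries. Even at its higher level, ACTA2 was a small part of the actin messenger RNA.

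**Figure D1:**
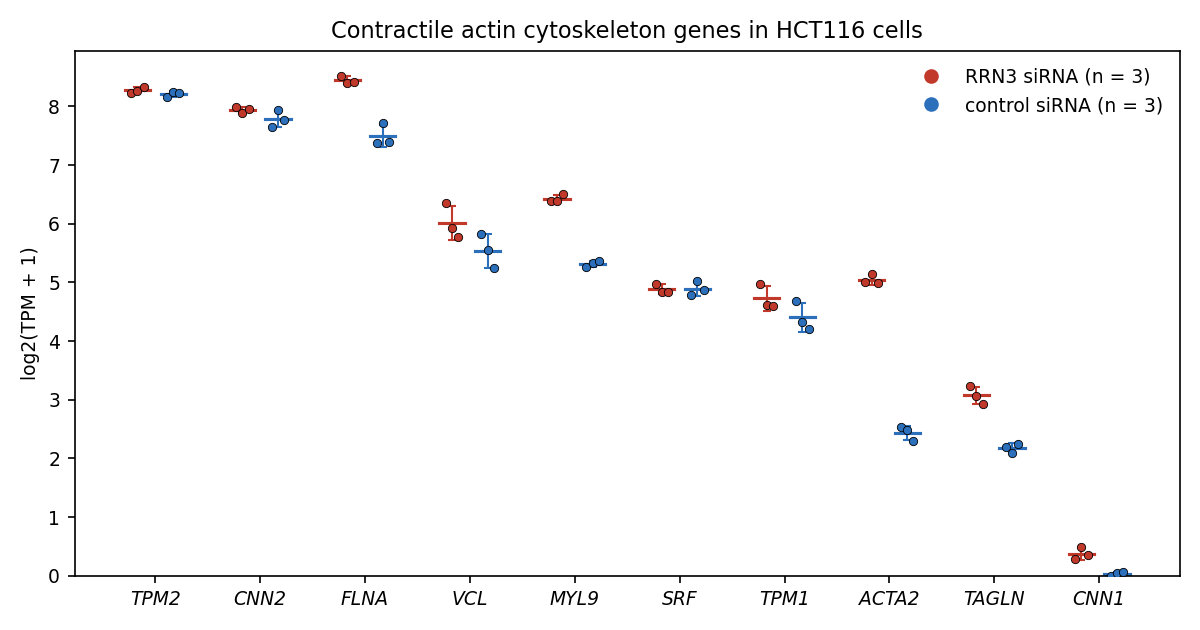
Level of each gene in every library as log2(TPM + 1), with RRN3 siRNA in red on the left of each pair and control siRNA in blue, horizontal bars at the group mean and error bars of 1 SD (n = 3 each). Genes are ordered by control level, and the groups stand apart for FLNA, MYL9, ACTA2, TAGLN and CNN1, with CNN1 close to 0 in both.

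Of the actin-binding proteins of smooth muscle, TAGLN, transgelin or SM22, was at 8.37, 7.36 and 6.61 TPM in RRN3 siRNA libraries, against 3.59, 3.28 and 3.73 TPM in control siRNA libraries. The groups did not overlap, with a log2 change of 0.89 (SE 0.14). Its paralog TAGLN2, transgelin-2, went the opposite way, at 108, 108 and 110 TPM in RRN3 siRNA libraries, against 259, 306 and 290.1 TPM in control siRNA libraries. TAGLN2 fell by 1.38 on the log2 scale (SE 0.08, limma adjusted p = 3.6e-05). TAGLN2 was the more abundant of the pair in every library. TAGLN (ENSG00000149591) lies on the plus strand at chr11:117199321-117204782.

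CNN1, the basic calponin of smooth muscle, was at 0.218, 0.406 and 0.272 TPM in RRN3 siRNA libraries, against 0, 0.0265 and 0.0423 TPM in control siRNA libraries. These values are below the mean of 1 TPM needed for testing in the main fit, and no fold is given against a group that includes 0. With every detected gene tested CNN1 passed upward, in a fit where 15.4% of all genes were called in either direction. CNN2, the calponin of non-muscle cells, was at 254, 236 and 246 TPM in RRN3 siRNA libraries, against 199.7, 245 and 218 TPM in control siRNA libraries. Its groups overlapped, with a log2 change of 0.15 (SE 0.09). CNN3, the acidic calponin, named after its values were seen, was at 160.1, 119 and 103 TPM in RRN3 siRNA libraries, against 101, 76.3 and 73.8 TPM in control siRNA libraries, and rose by a log2 change of 0.59 (SE 0.18, limma adjusted p = 0.0401). The CNN3 call ended without RRN3 siRNA replicate 2, control siRNA replicate 2 or control siRNA replicate 3 (adjusted p = 0.0877, 0.150 and 0.131), and with every detected gene tested or no variance trend (adjusted p = 0.0964 and 0.0657).

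MYL9, a regulatory light chain of myosin II found in smooth muscle and non-muscle cells, was at 82.8, 82.6 and 90.0 TPM in RRN3 siRNA libraries, against 37.4, 39.2 and 40.3 TPM in control siRNA libraries. The groups stood apart with little spread, at a log2 change of 1.11 (SE 0.08). Its close relatives MYL12A and MYL12B, named after their values were seen, had a log2 change of 0.60 (SE 0.17) and 0.66 (SE 0.17). Both rose, with limma adjusted p = 0.0289 for MYL12A and 0.0201 for MYL12B, and both calls ended without control siRNA replicate 2 (adjusted p = 0.121 and 0.0916) or control siRNA replicate 3 (adjusted p = 0.102 and 0.0756). With every detected gene tested, neither passed (adjusted p = 0.0758 and 0.0565), and MYL12A missed the threshold without a variance trend (adjusted p = 0.0529). MYL12A averaged 385 ± 83.1 TPM in RRN3 siRNA and 253 ± 41.9 TPM in control siRNA libraries (SD, n = 3 each), so MYL9 remained the less abundant light chain. MYL9 (ENSG00000101335) lies on the plus strand at chr20:36541484-36551447.

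The tropomyosins, which wind along the filament, differed less. TPM1 was at 30.4, 23.4 and 23.3 TPM in RRN3 siRNA libraries, against 24.7, 19.0 and 17.5 TPM in control siRNA libraries. In each group the library numbered 1 was the highest, and the lowest RRN3 siRNA libraries lay below the highest control, with a log2 change of 0.32 (SE 0.16). TPM2 was at 299, 306 and 322 TPM in RRN3 siRNA libraries, against 284, 304 and 298 TPM in control siRNA libraries, with overlapping groups and a log2 change of 0.07 (SE 0.07). TPM2 was the most abundant of the 10 genes in control cells. TPM3, a tropomyosin of non-muscle and slow muscle cells, rose by a log2 change of 0.30 (SE 0.08, limma adjusted p = 0.0268), and TPM4, a non-muscle form, by 0.69 (SE 0.19, limma adjusted p = 0.0280). Without RRN3 siRNA replicate 2, control siRNA replicate 2 or control siRNA replicate 3 neither passed, with adjusted p = 0.0877, 0.0647 and 0.0868 for TPM3 and 0.0575, 0.106 and 0.0992 for TPM4. With every detected gene tested neither passed (adjusted p = 0.0526 and 0.0743), and TPM3 also missed the threshold without RRN3 siRNA replicate 1 or a variance trend (adjusted p = 0.0627 and 0.0780).

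FLNA, filamin A, which crosslinks actin filaments, was at 367, 338 and 342 TPM in RRN3 siRNA libraries, against 164, 209 and 168 TPM in control siRNA libraries. Every RRN3 siRNA library was well above the highest control, with a log2 change of 0.96 (SE 0.10). FLNA had the largest difference of mean TPM among the 10 genes, 169 TPM. FLNC, the filamin of muscle, named after its values were seen, had a log2 change of -0.13 (SE 0.10, limma adjusted p = 0.378), with a sign that reversed once GC trends were removed. FLNA (ENSG00000196924) lies on the minus strand at chrX:154348524-154374638.

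VCL, vinculin, was at 80.3, 59.5 and 53.7 TPM in RRN3 siRNA libraries, against 55.9, 45.7 and 37.0 TPM in control siRNA libraries. The groups overlapped because control siRNA replicate 1 was above RRN3 siRNA replicate 3, and the log2 change was 0.47 (SE 0.19). The spread was wide in both groups, with a coefficient of variation of 21.7% in RRN3 siRNA and 20.5% in control siRNA libraries. VCL (ENSG00000035403) lies on the plus strand at chr10:73995193-74121363.

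SRF, the transcription factor of the group, was at 30.5, 27.6 and 27.7 TPM in RRN3 siRNA libraries, against 26.7, 31.5 and 28.1 TPM in control siRNA libraries. The groups overlapped fully, and the log2 change was -0.01 (SE 0.10), with a sign that varied between settings. SRF (ENSG00000112658) lies on the plus strand at chr6:43171299-43181507.

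**Figure D2:**
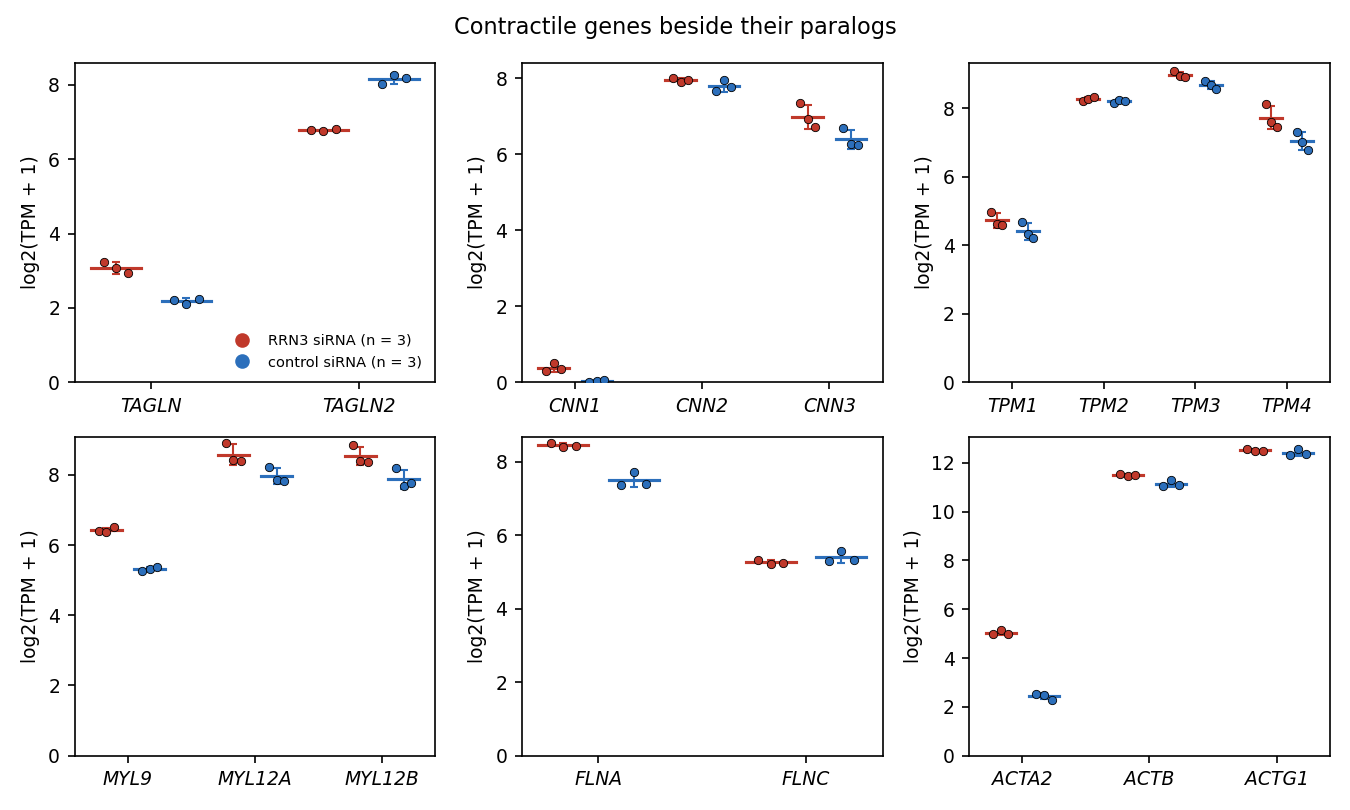
Level as log2(TPM + 1) of contractile genes and their paralogs in every library, with RRN3 siRNA in red on the left and control siRNA in blue, bars at the mean and error bars of 1 SD (n = 3 each). TAGLN was higher and TAGLN2 lower in RRN3 siRNA libraries, while ACTG1 and FLNC overlapped between the groups.

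Set in order of control level, TPM2 (295 ± 9.85 TPM) came first, then CNN2 (221 ± 22.8), FLNA (180.2 ± 24.6), VCL (46.2 ± 9.45), MYL9 (38.9 ± 1.45), SRF (28.8 ± 2.47), TPM1 (20.4 ± 3.83), ACTA2 (4.43 ± 0.453), TAGLN (3.54 ± 0.230) and CNN1, all mean TPM with SD (n = 3). The ranges of CNN2 and FLNA overlapped in control cells, as did those of VCL and MYL9. After RRN3 siRNA, FLNA (349 ± 15.6 TPM) stood first, MYL9 (85.1 ± 4.23 TPM) above VCL (64.5 ± 14.0 TPM), and ACTA2 (32.1 ± 1.99 TPM) above SRF (28.6 ± 1.63 TPM) and TPM1 (25.7 ± 4.06 TPM). Only the ranges of SRF and TPM1 overlapped there among neighbours in the order.

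Of all genes, 3679 of 12157 genes with a mean of at least 1 TPM passed the limma threshold of adjusted p under 0.05 (30.3%), 1367 upward (11.2%) and 2312 downward (19.0%). The split moved with the scaling used. It was 2017 up and 2115 down under median-of-ratios scaling, 2205 up and 2284 down under quantile normalization, and 2742 up and 2661 down with GC trends removed. Of the 9 contractile genes tested, ACTA2, TAGLN, MYL9 and FLNA passed upward and 0 downward, and 5 did not pass. The groups did not overlap for 5 of the 10, those 4 and CNN1, all with RRN3 siRNA above. CNN1 was not among the genes tested, so the like count is those 4 of the 9. Of all genes tested, 44.8% had no overlap in either direction, 17.9% with RRN3 siRNA above and 26.9% with RRN3 siRNA below. The median log2 change was 0.47 over the 9 genes and -0.05 over all genes tested. As this comparison chose the genes, nothing is read from these counts.

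VCL, TPM1 and ACTA2 had the transcripts with the least GC among the 10, at 48.1%, 50.7% and 52.1% averaged over the transcripts of each gene, while the others lay between 58.1% and 61.9%. In log2(TPM + 1), replicate 1 deviated from its group mean by 0.33 in RRN3 siRNA and 0.29 in control siRNA libraries for VCL. For TPM1 the deviations were 0.24 in RRN3 siRNA and 0.28 in control siRNA libraries. For ACTA2 they were small and of opposite sign, at -0.05 in RRN3 siRNA and 0.09 in control siRNA libraries. With the GC trend of each library removed, the VCL log2 change was 0.48 (SE 0.09) and that of TPM1 0.35 (SE 0.09), and both passed, as did CNN2 at 0.29 (SE 0.08), against 22.6% of all genes upward in that fit. VCL also passed without both libraries numbered 1 (0.45, SE 0.13, 14.5% of all genes upward). Without control siRNA replicate 1 alone it passed narrowly (0.62, SE 0.18, 10.4% upward). With any other single library left out VCL did not pass. Its log2 change was then 0.31 without RRN3 siRNA replicate 1 and 0.33 without control siRNA replicate 3. TPM1 did not pass whichever single library was left out. With median-of-ratios scaling VCL (0.55) and TPM1 (0.40) passed, where 16.6% of all genes did so upward. Under quantile normalization VCL (0.51) and TPM1 (0.36) passed as well, at 18.1% upward, and VCL (0.51) when TPM was rescaled to leave out mitochondrial and ribosomal protein transcripts, at 13.5% upward. These choices move the VCL and TPM1 calls and not their direction.

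**Figure D3:**
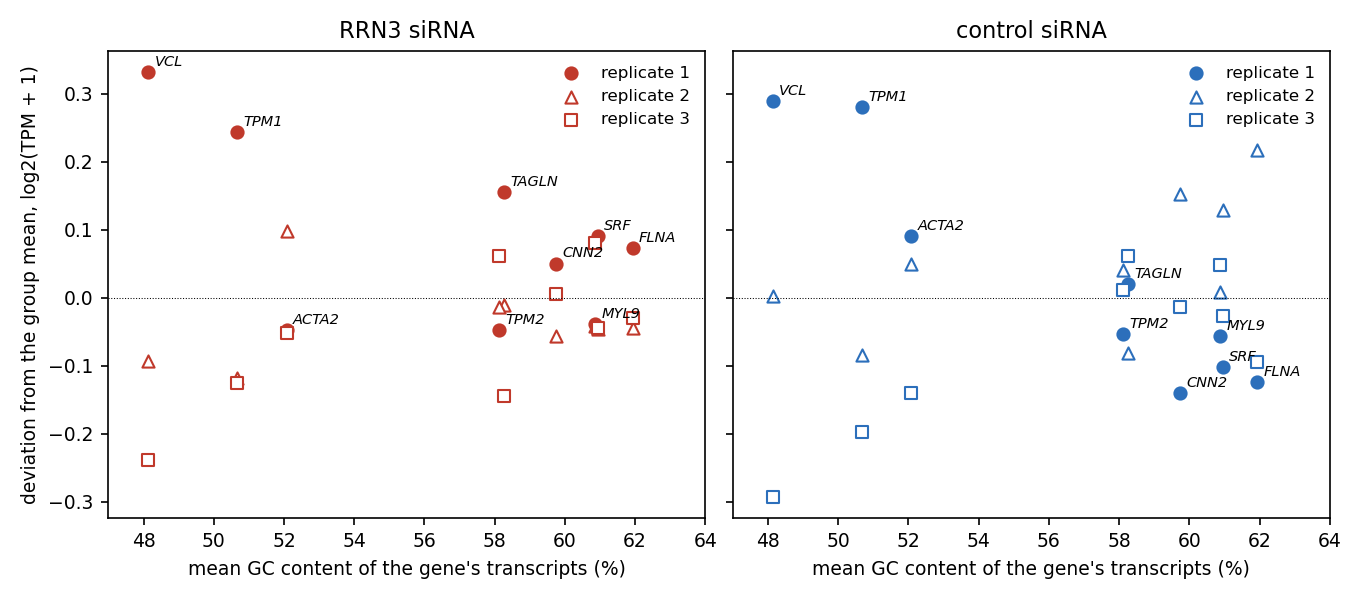
Deviation of each library from its group mean in log2(TPM + 1), against the mean GC content of the gene's transcripts in percent, for the 9 contractile genes tested, with RRN3 siRNA on the left and control siRNA on the right. Filled points are replicate 1, with gene names beside them, and VCL and TPM1 lie highest in that replicate in both groups.

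Several of the genes share exons with neighbours, and the labels do not state that strand was used in counting. Of the distinct 31-base words in coding transcripts of ACTA2, 24.7% were shared with ACTA2-AS1, which runs opposite to its 3′ end, and 20.03% with FAS, which overlaps its upstream start on the other strand. ACTA2-AS1 was listed at 0 or up to 0.0517 TPM in RRN3 siRNA and up to 0.128 TPM in control siRNA libraries. FAS, a death receptor and known p53 target, was at 8.64, 8.12 and 6.56 TPM in RRN3 siRNA libraries, against 3.17, 2.26 and 3.71 TPM in control siRNA libraries, and rose by a log2 change of 1.12 (SE 0.19, limma adjusted p = 0.00317). FAS was at lower TPM than ACTA2 in every library, though narrowly in control siRNA replicate 3 (3.71 against 3.91 TPM). The part of FAS in the ACTA2 values was not tested. STAMBPL1, a deubiquitinase gene that also overlaps ACTA2 on the other strand, had a log2 change of -0.22 (SE 0.19, limma adjusted p = 0.413). TAGLN shared 14.0% of its words with PCSK7, a proprotein convertase gene that overlaps it on the other strand. PCSK7 was at 22.4, 17.6 and 24.9 TPM in RRN3 siRNA libraries, against 7.24, 5.79 and 5.41 TPM in control siRNA libraries (log2 change 1.66, SE 0.17, limma adjusted p = 0.000349). PCSK7 exceeded TAGLN in every library, and its part in the TAGLN rise was not tested. VCL shared 16.1% with AP3M1, at 9.995 ± 4.21 TPM in RRN3 siRNA and 8.49 ± 1.89 TPM in control siRNA libraries (SD, n = 3 each). TPM1 shared 22.8% with TPM1-AS, which stayed below 1 TPM. CNN2 shared 20.5% in all, of which 10.7% with an opposite transcript at its end. MYL9, FLNA and TPM2 shared 0.461%, 0.547% and 1.23% of their words with other genes, and SRF and CNN1 shared 0%.

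Profiles most like that of ACTA2 over the 6 libraries, by the root mean square difference of centred log2(TPM + 1) values among 8669 other genes with a mean of at least 5 TPM, belonged to KLK5, a secreted serine protease (0.102), ZBED2, a zinc finger protein (0.105), CDKN1A, the kinase inhibitor p21 (0.113), AXL, a receptor tyrosine kinase (0.142), and KRTAP2-3, a keratin-associated protein (0.172). AXL averaged 46.0 TPM in RRN3 siRNA and 7.93 TPM in control siRNA libraries, and KRTAP2-3 averaged 115 TPM in RRN3 siRNA and 20.4 TPM in control siRNA libraries. Of the contractile genes, MYL9 came nearest, 153rd in this order with a difference of 0.761, and then FLNA and TAGLN, with 0.838 and 0.870. This measure holds the size of the group difference as well as the spread within groups.

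Of 78 other genes of the pathway in 6 lists, 67 were measured, of which 24 rose, 5 fell and 38 did not pass, where 11.2% of all genes tested rose and 19.0% fell. The median log2 change was 0.23, against -0.05 over all genes tested. The lists were chosen with earlier results of these data known, so nothing is read from these counts or those of each list below. Those that changed numbered 18 without RRN3 siRNA replicate 2, 18 without control siRNA replicate 2 and 17 without control siRNA replicate 3, against 29 with all libraries. The share of all genes called was 18.4%, 22.2% and 23.1% with those libraries left out, against 30.3% with all. Of the list genes that changed, 14, 14 and 12 rose in the same order of left-out libraries, and 15 rose when every detected gene was tested. Over all genes 788, 1010, 893 and 1206 rose in those fits, against 1367 in the main fit.

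Of 14 measured genes of non-muscle myosin II and its control, 6 rose, 0 fell and 8 did not pass (all genes tested, 11.2% rose and 19.0% fell), with a median log2 change of 0.16. MYH9, the main non-muscle heavy chain here, rose to 203, 191 and 187 TPM in RRN3 siRNA libraries, against 99.7, 108 and 84.9 TPM in control siRNA libraries (log2 change 0.99, SE 0.10, limma adjusted p = 0.000349). RHOB, a GTPase of the family that drives contraction, was at 185, 177 and 177 TPM in RRN3 siRNA libraries, against 44.8, 45.9 and 39.6 TPM in control siRNA libraries. Its log2 change of 2.03 (SE 0.08, limma adjusted p = 1.5e-05) ranked 30th of all genes tested. RHOC rose by 0.50 (SE 0.09, limma adjusted p = 0.0042), whereas RHOA was lower in every RRN3 siRNA library without passing (log2 change -0.15, SE 0.07, limma adjusted p = 0.118). MYL6, an essential light chain, rose by 0.43 (SE 0.10, limma adjusted p = 0.0157), a call that ended after median-of-ratios scaling (adjusted p = 0.0616) and when replicate 2 of RRN3 siRNA (0.0675) or of control siRNA (0.0621) was left out. Without control siRNA replicate 2 the list held 3 that rose, and 1010 of all genes rose in that fit, against 1367 in the main fit. The light chain kinase MYLK stood at a log2 change of -0.01 (SE 0.26, limma adjusted p = 0.984).

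Of 22 focal adhesion and crosslinking genes, all measured, 7 rose, 0 fell and 15 did not pass, beside 11.2% of all genes rising and 19.0% falling, with a median log2 change of 0.31. PARVA, parvin, an adaptor at integrin adhesions, was at 15.2, 14.9 and 13.5 TPM in RRN3 siRNA libraries, against 5.55, 5.28 and 4.86 TPM in control siRNA libraries (log2 change 1.32, SE 0.12, limma adjusted p = 0.000272). ACTN4, an alpha-actinin, rose by 0.70 (SE 0.07, limma adjusted p = 0.000301), PDLIM7 by 0.49 (SE 0.08, adjusted p = 0.00296) and PXN, paxillin, by 0.56 (SE 0.10, adjusted p = 0.00502), all from limma. Talin, the partner of vinculin, had a TLN1 log2 change of -0.02 (SE 0.13, limma adjusted p = 0.937). The list held 4 that rose without RRN3 siRNA replicate 2 or control siRNA replicate 3. In those fits 788 and 893 of all genes rose, against 1367 in the main fit. The list held 14 once GC trends were removed, a fit in which 22.6% of all genes rose.

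Of 16 SRF cofactors and regulators of actin dynamics, all measured, 5 rose, 2 fell and 9 did not pass (all genes tested, 11.2% rose and 19.0% fell), with a median log2 change of 0.18. The cofactors MRTFA and MRTFB did not pass, with log2 changes of 0.19 (SE 0.12, limma adjusted p = 0.276) and 0.17 (SE 0.22, limma adjusted p = 0.629), although MRTFA passed with GC trends removed (0.31, adjusted p = 0.0171). FHL2, a LIM protein that binds SRF, was at 187, 179 and 181 TPM in RRN3 siRNA libraries, against 52.3, 54.8 and 48.2 TPM in control siRNA libraries (log2 change 1.80, SE 0.08, limma adjusted p = 1.5e-05). ELK3, an SRF partner of the ternary complex family, rose by 1.28 (SE 0.21, limma adjusted p = 0.00306), while its relative ELK1 fell by 0.42 on the log2 scale (SE 0.11, limma adjusted p = 0.0242). The ELK1 fall missed the threshold under median-of-ratios scaling (adjusted p = 0.0647) and when RRN3 siRNA replicate 2 (0.0877), RRN3 siRNA replicate 3 (0.0713) or control siRNA replicate 2 (0.0533) was left out. GSN, gelsolin, an actin-severing protein, rose by 0.59 (SE 0.07, limma adjusted p = 0.000849), and DIAPH3, a formin, fell by 0.997 on the log2 scale (SE 0.17, limma adjusted p = 0.00398). The list held 3 that rose without RRN3 siRNA replicate 1, RRN3 siRNA replicate 2 or control siRNA replicate 3, and also without a variance trend. Over all genes 1254, 788, 893 and 1281 rose in those fits in that order, against 1367 in the main fit.

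Of 6 measured immediate early SRF targets, 2 rose, 1 fell and 3 did not pass, set against 11.2% of all genes that rose and 19.0% that fell, with a median log2 change of 0.16. CCN1, a secreted matrix protein, was at 47.8, 39.4 and 38.3 TPM in RRN3 siRNA libraries, against 16.9, 17.9 and 14.7 TPM in control siRNA libraries (log2 change 1.29, SE 0.12, limma adjusted p = 0.000293). FOS moved the other way, at 5.59, 4.65 and 4.16 TPM in RRN3 siRNA libraries, against 11.1, 10.9 and 8.01 TPM in control siRNA libraries (log2 change -0.92, SE 0.17, limma adjusted p = 0.00568). MCL1, an antiapoptotic protein, rose by 1.07 (SE 0.28, limma adjusted p = 0.0238), a call that ended when control siRNA replicate 2 (adjusted p = 0.104) or 3 (0.0860) was left out and when every detected gene was tested (0.0669). EGR1 did not pass (log2 change 0.02, SE 0.18, limma adjusted p = 0.954).

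Of 7 measured smooth muscle proteins and paralogs of the contractile genes, 3 rose, 2 fell and 2 did not pass (all genes tested, 11.2% rose and 19.0% fell), with a median log2 change of 0.30. Besides TAGLN2, the gene that fell was SMTN, smoothelin, an actin-binding protein of contractile smooth muscle. SMTN was at 36.1, 31.6 and 33.6 TPM in RRN3 siRNA libraries, against 53.7, 59.3 and 55.7 TPM in control siRNA libraries (log2 change -0.72, SE 0.09, limma adjusted p = 0.000907). The 3 that rose were CNN3, TPM3 and TPM4, and 0 rose without RRN3 siRNA replicate 2, control siRNA replicate 2, control siRNA replicate 3 or the filter on low genes, and 1 without a variance trend. Over all genes 788, 1010, 893, 1206 and 1281 rose in those fits in that order, against 1367 in the main fit. DES, desmin, an intermediate filament protein of muscle, was at 6.17, 6.89 and 6.19 TPM in RRN3 siRNA libraries, against 6.92, 8.44 and 6.80 TPM in control siRNA libraries (log2 change -0.17, SE 0.14, limma adjusted p = 0.403). MYOCD, myocardin, the muscle cofactor of SRF, was listed at 0 in all 6 libraries.

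**Figure D4:**
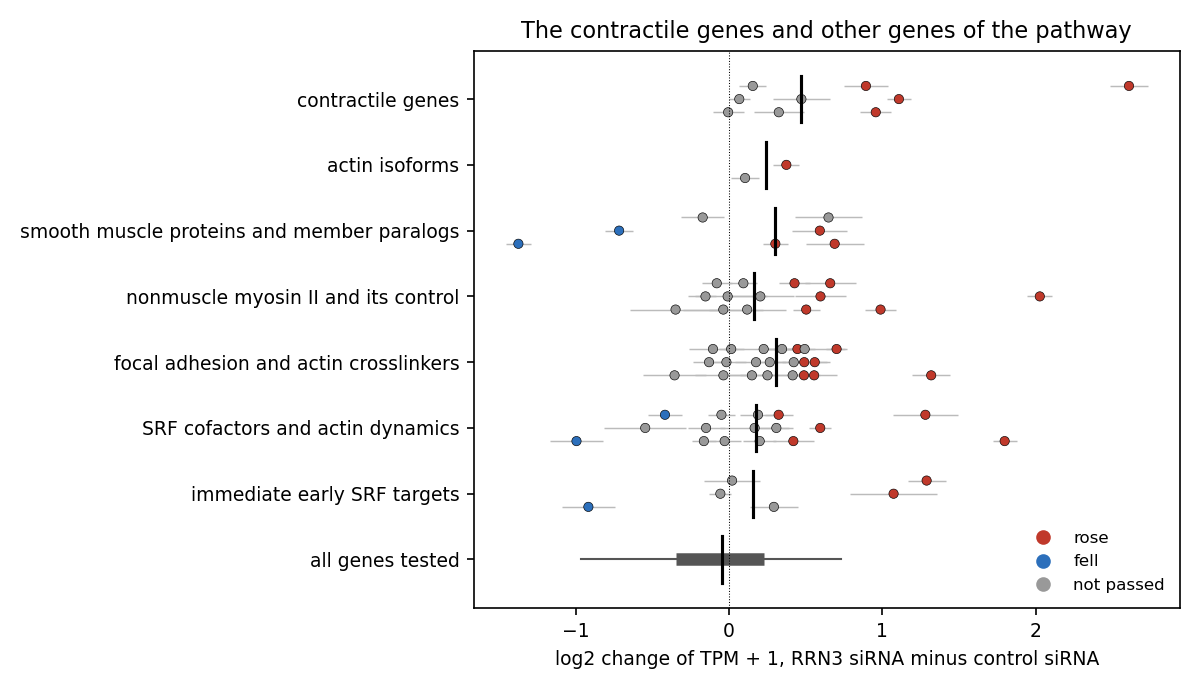
Log2 change of TPM + 1, RRN3 siRNA minus control siRNA, of each measured gene by list, with error bars of 1 SE, red for genes that rose, blue for genes that fell and grey for those that did not pass, and black bars at list medians. The bottom row gives all 12157 genes tested as the middle 50% (thick) and middle 90% (thin), and ACTA2 is the point farthest to the right.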

How the data were processed

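RNA sequencing of 6 HCT116 libraries was analysed from a deposited table of TPM per gene symbol, which the authors computed. STAR, Salmon and GRCh38 are listed in the submitters' processing notes with no role, and the sources used here give no versions, annotation or filters. Per the labels' protocols, libraries were made from poly(A) RNA with ribosomal RNA removed by Ribo-Zero and random priming. Groups came from the sample titles. Values were analysed as log2(TPM + 1), a scale that understates changes of low genes, with limma 3.58.1 in R 4.3.3 (eBayes with trend, group alone) on 12157 genes with a mean of at least 1 TPM, adjusted by Benjamini-Hochberg at 0.05. Errors of levels are SD and those of log2 changes SE. The fit was tested on simulated data with independent noise for each gene and library. Those data lack the GC trends seen here, so the fit was not checked under such trends. GENCODE release 29 (GRCh38), matched by symbol, gave coordinates, GC content (12144 genes) and shared words, and RefSeq (GRCh38) gave promoters. Genes were named by a rule: all 10, up to 4 called genes with the smallest adjusted p per list, neighbours, and the 5 profiles most like ACTA2. MYLK, RHOA, TLN1, MRTFA, MRTFB, ELK1, EGR1, DES and MYOCD, like those so described in the text, were named after their values were seen. The members and lists were chosen with earlier results of these data known. Python 3.11.15, pandas 2.3.3 and matplotlib 3.10.9 were used for annotation and plots. Some results are not reported here.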

Additional observations from a re-analysis of the deposited data

How the results depend on the processing

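Calls were repeated with other pseudocounts (0.1 and 0.5), filters, scalings and variance models, a replicate block and without each library, and, chosen after the data were seen, with the GC trend of each library removed. ACTA2, TAGLN, MYL9 and FLNA passed upward under every one of these. The number of genes changed was 5546 (45.6%) with a replicate block. With 1 library left out it ranged from 2240 (18.4% of genes tested) to 4254 (35.2%), and the number that rose from 788 to 1273. Of the contractile genes, 4 to 5 were called with 1 library left out, and 6 with a replicate block, which added VCL and TPM1. With every detected gene tested 5 were called, which added CNN1, where 15.4% of all genes were called. With GC trends removed 7 were called, which added VCL, TPM1 and CNN2, where 44.5% of all genes were called. Called genes of the pathway lists numbered 17 to 29 with 1 library left out. They numbered 20 with every detected gene tested and 23 without a variance trend. They numbered 34 without both libraries numbered 1, 36 with a replicate block and 41 with GC trends removed. Of all genes, 15.4%, 29.2%, 39.8%, 45.6% and 44.5% were called in those 5 fits in that order. Samples of the same number deviated from their group means with correlations of 0.419, 0.0954 and 0.159 across genes for numbers 1, 2 and 3. For different numbers the correlations ran from -0.338 to 0.194, so only number 1 lay above that range. The main fit did not take the numbers as pairs, and whether they are pairs was not tested. The SRF log2 change reversed to 0.066 under median-of-ratios scaling, 0.034 under quantile normalization, 0.027 after rescaling and 0.13 with GC trends removed, and ranged from -0.058 to 0.058 with 1 library left out. That of FLNC reversed to 0.032 with GC trends removed, and that of AP3M1 ranged from -0.13 to 0.37 with 1 library left out. Genes near 0 that did not pass also reversed. MYLK reached 0.027, 0.082, 0.00481 and 0.036, and TLN1 0.056, 0.019, 0.016 and 0.094, under median-of-ratios scaling, quantile normalization, rescaling and GC removal, and EGR1 -0.14 without both libraries numbered 1. With 1 library left out MYLK ranged from -0.25 to 0.17, TLN1 from -0.11 to 0.073, MRTFB from -0.037 to 0.31 and EGR1 from -0.12 to 0.18. The cause was not tested. Depth is unknown, which limits what can be said of CNN1 and other genes below 1 TPM.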
